A study of Drosophila melanogaster with 18 samples.

Results

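Egg chambers of Drosophila melanogaster in which follicle cells carried a blocked epidermal growth factor receptor (EGFR) were compared directly with egg chambers in which follicle cells carried an activated receptor for bone morphogenetic proteins (BMP). The comparison took the 3 arrays titled EGFR loss of function and the 3 titled BMP gain of function, 6 of the 18 arrays of the series, and read all 13966 probe sets other than Affymetrix controls. EGFR loss flies had the genotype CY2-GAL4, UAS-dnEGFR, a dominant-negative receptor, and BMP gain flies had the genotype CY2-GAL4, UAS-tkv*, an activated form of the type I BMP receptor Thickveins. Both groups thus shared the CY2-GAL4 driver, which expresses transgenes in follicle cells, and were hybridized in the same round. Levels are referred to wild type A, which is OreR without a driver, and in places to EGFR gain, each again 3 arrays. EGFR gain, titled EGFR gain of function, is a further genotype of the round with an active EGFR under the same driver. It is thus not a driver control.

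All samples were ovaries of females aged 6 to 8 days kept with yeast at 23 °C for 24 h, from which egg chambers of stages 9 to 10 were dissected. Each replicate held 100 egg chambers, collected 20 at a time out of the 300 dissected per genotype, so the p-values cover just the scatter among these samples, part or all of which may be technical. Driver-only flies were not analysed here. A direct difference between both transgenic groups has the driver on each side, while the transgenes differ between them. For many genes each group's own difference from wild type A is given beside the direct one.

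EGFR in follicle cells is activated by Gurken, a ligand of the transforming growth factor alpha type that the oocyte secretes from its dorsal anterior corner, and it sets dorsal fates. The BMP ligand Decapentaplegic (Dpp), made by anterior follicle cells, binds Thickveins and the type II receptor Punt, which phosphorylate the transcription factor Mad. The same follicle cells make yolk proteins and then secrete the eggshell, first the vitelline membrane and later the chorion, and both pathways pattern that eggshell at its anterior and dorsal side.

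Values are log2 signals, quoted in the order of replicates 1, 2 and 3. Means carry the SD over 3 arrays, and differences are EGFR loss minus BMP gain in log2 units, given with the SE and limma's Benjamini-Hochberg adjusted p. The SE and p pool the spread of all 18 arrays in 6 groups, which include wild type B and BMP loss of another round. A gene is said to be called at an adjusted p under 0.05. Array medians of both groups lay between 4.44 and 4.49, and Spearman correlations were 0.958 to 0.964 within EGFR loss, 0.967 to 0.970 within BMP gain and 0.956 to 0.964 between them. EGFR loss replicate 3 stood apart in its RNA quality controls. The 3' minus 5' difference of the actin control was 2.89 there and 1.12 to 1.22 on the other 5 arrays, and that of GAPDH was 2.68 against 2.00 to 2.08. Results are therefore also given without that array where its omission bears on them. Markers of the labelled tissue were present. All 8 measured follicle cell markers and all 8 measured germline markers lay above the 25th percentile of the arrays in both groups.

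Blocked EGFR and active BMP receptor differed in genes of the eggshell and the yolk, among others. The vitelline membrane gene Vm32E was 90.2-fold higher in EGFR loss, the related gene Vm26Ac 3.79-fold and the chorion gene Cp15 3.78-fold, while the 3 yolk protein genes were 1.51-fold to 2.40-fold lower. The patterning gene mirr, the Toll-family receptor gene 18w, the BMP receptor gene tkv and the differentiation gene bam were lower too. Of 13966 probe sets 279 were called (2.00%), 151 higher in EGFR loss (1.08%) and 128 lower (0.917%), with 2159 at an unadjusted p under 0.05. Among the 10826 genes read by their brightest probe set 238 were called (2.20%), 1.20% of all genes higher and 0.998% lower. Counts of called members in each gene list below stand beside these shares of all genes. The arrays of the groups did not overlap for any of the 279 called probe sets, which the calling rule largely fixes in advance. Lack of overlap in a called gene is therefore no further support for its call. Of all probe sets, 20.1% had groups that did not overlap. A difference of at least 2-fold was called for 71 probe sets (0.508%), 39 higher and 32 lower. In the same fit 3.17% of probe sets were called for EGFR loss and 2.39% for BMP gain against wild type A. Those comparisons share arrays with each other and with the direct one, so their values are set side by side without counts of overlap. In these bulk samples fewer cells of a type and less RNA per cell cannot be told apart.

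**Figure D1:**
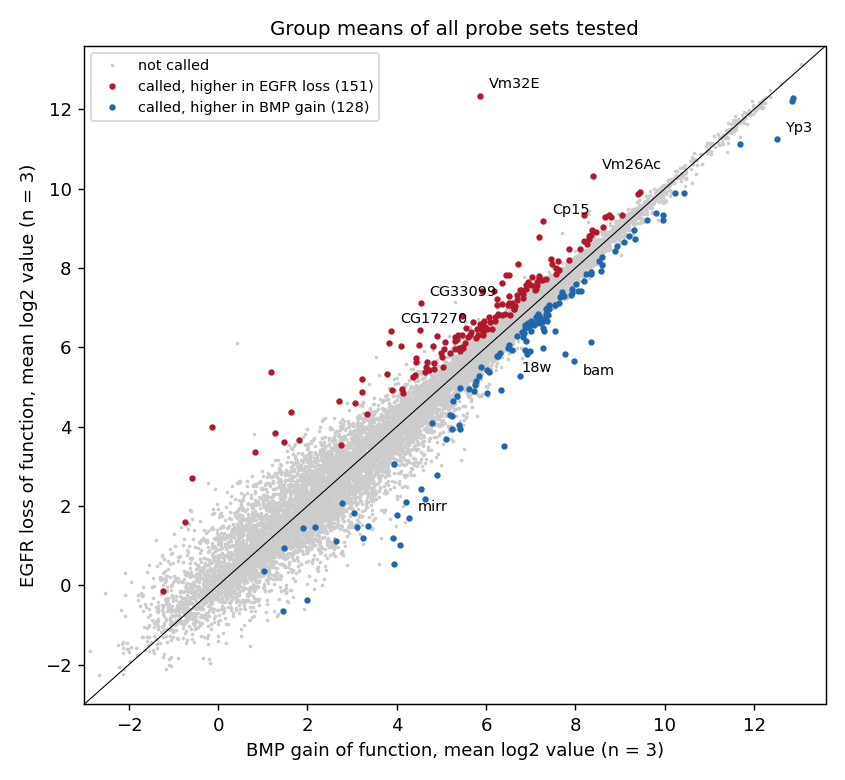
Mean log2 value of each probe set in BMP gain (horizontal) and EGFR loss (vertical), over 3 arrays each. The 151 probe sets called higher in EGFR loss and the 128 called lower are coloured, and Vm32E stands farthest from the diagonal.

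The driven receptors were read first. Egfr by its brighter probe set stood at 5.13, 5.74 and 5.97 in EGFR loss and at 5.30, 5.66 and 5.58 in BMP gain, a difference of 0.10 ± 0.21 (adjusted p = 0.872). Its dimmer probe set gave -0.07 ± 0.16 (0.883). The groups overlapped on both, so these arrays give no reading of the dominant-negative transgene. tkv encodes the receptor driven in BMP gain and has a pair of probe sets that were both called. The dimmer stood at 6.36, 6.40 and 5.62 in EGFR loss and at 8.33, 8.44 and 8.25 in BMP gain, a difference of -2.21 ± 0.18 (1.52e-05). The brighter stood at 6.31, 6.54 and 6.38 against 7.50, 7.46 and 7.70, a difference of -1.14 ± 0.10 (2.3e-05). No array of one group reached the other on either probe set. Against wild type A the probe sets parted. The dimmer differed by 1.81 ± 0.18 in BMP gain (6.61e-05) and by -0.40 ± 0.18 in EGFR loss (0.265). The brighter differed by 0.16 ± 0.10 in BMP gain (0.618) and by -0.98 ± 0.10 in EGFR loss (9.56e-05). The direct tkv difference thus joined a rise in BMP gain, on the dimmer probe set, to a fall in EGFR loss, on the brighter. Which part of the transcript each probe set reads is not given in the sources used here.

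Other members of the BMP pathway were mostly not called. Of 18 measured, none was higher and 2, tkv and magu, were lower in EGFR loss, with a median difference of -0.24 against 0.00033 over all genes. Their arrays did not overlap for 3 members on the higher side and 5 on the lower, against 10.5% of all genes on each side. magu, which encodes a secreted BMP modulator, stood at 6.62, 6.11 and 6.47 in EGFR loss and at 7.35, 7.24 and 7.31 in BMP gain, a difference of -0.90 ± 0.17 (0.0154). Every BMP gain array lay above every EGFR loss array, and magu differed from wild type A by 1.01 in BMP gain (0.00531) and by 0.11 in EGFR loss (0.825). The call ended without EGFR loss replicate 2 (0.0617) and without BMP gain replicates 1 (0.0613), 2 (0.0532) or 3 (0.0554). Dad, an inhibitory Smad and a transcriptional target of the pathway, stood at -0.77, 2.54 and 3.01 in EGFR loss and at 4.14, 4.23 and 4.19 in BMP gain. The groups did not overlap, but the first EGFR loss array lay far below the others, and the difference of -2.59 ± 0.66 was not called (0.066). Nor was Dad called against wild type A, at -1.17 in EGFR loss (0.407) and 1.43 in BMP gain (0.442). In EGFR gain, with the same driver, Dad stood at 4.09 ± 0.17, close to BMP gain. The direct difference passed the threshold without EGFR loss replicate 1, at -1.41 (0.000726), and without EGFR loss replicate 3, at -3.30 (0.0223). With replicate 3 left out, 4 members of the list were lower in place of 2.

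The remaining BMP genes read as follows. The type I receptor gene sax (-0.15, 0.663), the type II receptor genes put (-0.23, 0.475) and wit (-0.75, 0.725), and the Smad genes Mad (-0.01, 0.975) and Med (0.12, 0.639) were not called. Among the ligands, dpp stood at 0.30 ± 0.50 (0.836), gbb at -1.14 ± 0.68 (0.465), and neither was called. The transcription factor gene shn, at -0.38 (0.066), and the extracellular regulator gene cv, at -0.57 (0.0717), lay close to the threshold. Outside the list and singled out after their values were seen, a further ligand gene and a target were called. mav, a ligand gene of the transforming growth factor beta family, stood at 6.65, 6.63 and 6.58 in EGFR loss and at 6.24, 5.65 and 5.87 in BMP gain, a difference of 0.70 ± 0.12 (0.00796). It was below wild type A in BMP gain, by -0.64 (0.0095), and at 0.06 in EGFR loss (0.866). Dtg, named for its response to Dpp, stood at 0.84, -0.08 and 0.84 against 3.98, 4.18 and 3.66, a difference of -3.41 ± 0.68 (0.0191). It differed from wild type A by -2.77 in EGFR loss (0.0435) and by 0.64 in BMP gain (0.844). The groups lay far apart, but the EGFR loss values lie below the 25th percentiles of their arrays (1.90 to 2.03), which leaves the size uncertain. The call of Dtg ended without EGFR loss replicate 2 (0.0747) and without BMP gain replicates 1 (0.0663), 2 (0.0891) or 3 (0.0536).

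Of 8 measured genes known to respond to EGFR, mirr was lower in EGFR loss, none was higher and 7 were not called, with a median of -0.55. mirr, a homeobox gene of the Iroquois complex that marks dorsal anterior follicle cells, stood at 1.11, 1.36 and 2.58 in EGFR loss and at 4.33, 4.03 and 4.43 in BMP gain. All EGFR loss arrays lay below all BMP gain arrays, and the difference was -2.58 ± 0.31 (0.000485). Without EGFR loss replicate 3, the highest of its group, it was -3.03 (1.25e-05). Set against wild type A, mirr differed by -2.74 in EGFR loss (0.000249) and by -0.17 in BMP gain (0.935). Its EGFR loss mean is below the arrays' 25th percentile, so the size is uncertain.

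The other Iroquois genes did not pass. caup stood at 1.14, 2.18 and 0.99 against 2.61, 3.92 and 3.82, at -2.02 ± 0.51 (0.0625), with groups that did not overlap, and it passed without BMP gain replicate 1, at -2.43 (0.0464). ara gave 0.34 ± 0.63 (0.853). Feedback inhibitors of the receptor also missed the threshold. kek1 stood at 2.30, 2.84 and 1.60 in EGFR loss and at 3.62, 3.96 and 4.67 in BMP gain, a difference of -1.84 ± 0.49 (0.0764) between groups that did not overlap. Against wild type A neither caup (-1.84, 0.0735, in EGFR loss and 0.18, 0.966, in BMP gain) nor kek1 (-1.62, 0.0994, and 0.21, 0.952) was called. The difference was -0.76 ± 0.55 for sty (0.567) and -0.35 ± 1.16 for aos (0.928), the latter between values at the bottom of the scale. edl, singled out after its values were seen, encodes an antagonist of the ETS factors and stood at 0.66 ± 0.21 (0.144). None of 16 measured ligand, receptor and MAP kinase cascade genes was called, and their median was -0.04. Within that list the ligand gene spi stood at 6.32, 6.60 and 6.06 in EGFR loss and at 5.83, 5.93 and 5.80 in BMP gain, at 0.47 ± 0.14 (0.105), and it passed without EGFR loss replicate 3, at 0.61 (0.0401). The oocyte ligand gene grk gave 0.01 ± 0.12 (0.984).

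18w moved opposite ways from wild type A in the groups compared. It encodes a Toll-family receptor that follicle cells use in migration, and it stood at 5.46, 6.13 and 5.88 in EGFR loss, 7.53, 7.72 and 8.02 in BMP gain and 6.62 ± 0.09 in wild type A. The wild type mean thus lay between groups that did not overlap. EGFR gain, with the same driver, stood at 7.77 ± 0.14, level with BMP gain at 7.76. The direct difference was -1.94 ± 0.16 (1.52e-05), made of -0.80 ± 0.16 in EGFR loss (0.0135) and 1.14 ± 0.16 in BMP gain (0.0012). Among 19 adhesion and polarity genes it was the one called, against 2.20% of all genes, with a list median of -0.10. Yp3, described below, was the other gene of this kind among those given here with both differences called in opposite directions. Further follicle patterning genes were not called. cbt, a zinc finger transcription factor gene, stood at 6.51, 6.51 and 5.81 against 5.65, 5.71 and 5.73, at 0.58 ± 0.19 (0.144), and passed without EGFR loss replicate 3, the lowest of its group, at 0.81 (0.0228). The zinc finger gene br, which marks dorsal appendage cells, gave 0.60 ± 0.48 (0.61) by its brightest probe set. bun, a leucine zipper gene, gave -0.05 ± 0.12 (0.906). For pip, the sulfotransferase gene of the ventral cue, the difference was -0.46 ± 0.71 (0.82). Its arrays did not overlap, at 4.55, 4.59 and 4.51 in EGFR loss against 4.73, 4.92 and 5.39 in BMP gain. Of 13 genes of that ventral cue and the Toll to Dorsal pathway only cact, the Dorsal inhibitor gene, was called, at -0.35 ± 0.07 (0.0216), with -0.27 against wild type A in EGFR loss (0.0581) and 0.08 in BMP gain (0.795). Its call ended without EGFR loss replicate 2 (0.0636) or BMP gain replicates 1 (0.0888), 2 (0.0702) or 3 (0.0541).

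**Figure D2:**
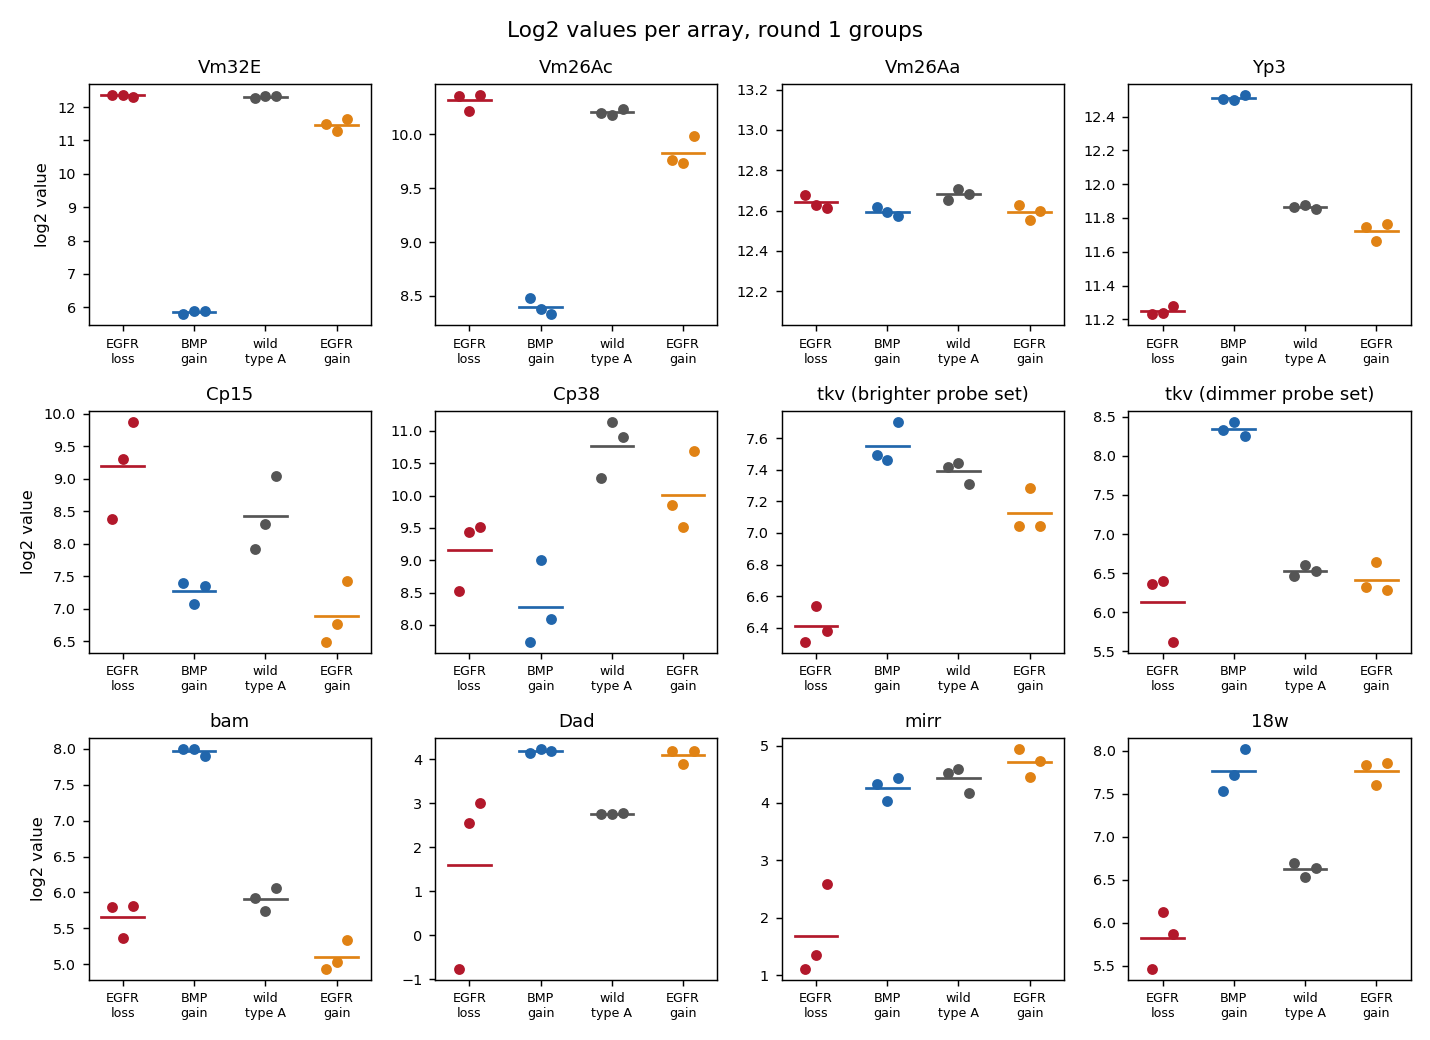
Log2 value of single probe sets on each array of the 4 groups of the round (wild type A, EGFR gain, EGFR loss, BMP gain), with a line at each group's mean. Vm32E and Vm26Ac are lowest in BMP gain, mirr is lowest in EGFR loss, and bam and the dimmer tkv probe set are highest in BMP gain.

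The vitelline membrane is the inner eggshell layer. Of 8 measured vitelline membrane and early eggshell genes 2 were higher in EGFR loss, none was lower and 6 were not called, with a median of 0.09. Vm32E stood at 12.37, 12.37 and 12.30 in EGFR loss and at 5.78, 5.88 and 5.90 in BMP gain, a difference of 6.49 ± 0.08 (4.85e-15). Spreads of 0.04 and 0.06 stood on either side of that gap, the widest of all called differences. Relative to wild type A, at 12.31 ± 0.03, Vm32E differed by 0.04 in EGFR loss (0.863) and by -6.45 in BMP gain (5.28e-15). Vm26Ac stood at 10.36, 10.22 and 10.37 against 8.48, 8.38 and 8.33, a difference of 1.92 ± 0.09 (5.66e-08) with no overlap. Against wild type A it differed by 0.11 in EGFR loss (0.587) and by -1.81 in BMP gain (1.23e-07).

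Related genes of the same layer were close in both groups. Vm26Aa stood at 12.68, 12.63 and 12.61 in EGFR loss and at 12.62, 12.59 and 12.57 in BMP gain, at 0.05 ± 0.06 (0.759), and the groups overlapped. The differences were 0.10 ± 0.07 for Vm34Ca (0.542), 0.02 ± 0.10 for psd (0.948) and -0.09 ± 0.09 for fs(1)N (0.715), which encodes a protein of the membrane needed for terminal signalling. Vm34Ca held the highest value of every array compared, and Vm26Aa lay near it. Whether signals that high can still show a difference was not tested. Vm26Ac, Vm26Aa and psd are consecutive genes on arm 2L in the annotation, so called and uncalled members of the family lie side by side. CG13998, 2 genes before Vm26Ac and singled out after its values were seen, was also higher in EGFR loss, at 0.68 ± 0.13 (0.0182). It parted from its neighbour against wild type A, at 0.74 in EGFR loss (0.00852) and 0.06 in BMP gain (0.951). The call of CG13998 ended without EGFR loss replicate 2 (0.0711) or BMP gain replicates 1 (0.0648), 2 (0.0803) or 3 (0.0553). yellow-g and yellow-g2, genes for eggshell cross-linking, gave 0.67 ± 0.37 (0.419) and 0.07 ± 0.43 (0.961).

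Chorion genes, which make the outer eggshell late in oogenesis, varied widely between replicates. Of 7 measured, 1 was higher in EGFR loss and 6 were not called. Their median difference was 0.89, all 7 had a positive value, and for 3 the arrays did not overlap, on the side that 10.5% of all genes show. Cp15 stood at 8.38, 9.31 and 9.87 in EGFR loss and at 7.40, 7.06 and 7.34 in BMP gain, a difference of 1.92 ± 0.36 (0.0138). The lowest EGFR loss array was still above the highest BMP gain array. Cp15 differed from wild type A by 0.77 in EGFR loss (0.301) and by -1.15 in BMP gain (0.146), neither called. Without EGFR loss replicate 3 the difference was 1.58 (0.0452), and the call ended without EGFR loss replicate 2 (0.0519) or BMP gain replicate 2 (0.0702). Cp19 stood at 9.06, 9.39 and 9.88 against 7.73, 8.96 and 8.22, at 1.14 ± 0.32 (0.0898), and passed without BMP gain replicate 2 (0.0459). Cp18 gave 0.61 ± 0.17 (0.104), passing without EGFR loss replicate 2 (0.0316), and Cp16 1.10 ± 0.54 (0.355).

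These 4 genes lie on arm 3L. On the X the differences were 0.89 ± 0.38 for Cp38 (0.273), 0.14 ± 0.39 for Cp7Fc (0.911) and 0.08 ± 0.32 for Cp36 (0.937). Both groups lay below wild type A for these X-linked genes. Cp38 differed from it by -1.61 in EGFR loss (0.0347) and by -2.50 in BMP gain (0.00221), Cp7Fc by -1.54 (0.0487) and -1.68 (0.0371), and Cp36 by -1.23 (0.0547) and -1.31 (0.0468). Against wild type A the medians over all 7 chorion genes were 0.25 in EGFR loss and -1.15 in BMP gain.

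Yolk protein genes are transcribed in follicle cells and in fat body, and all 3 were lower in EGFR loss than in BMP gain. Yp3 stood at 11.23, 11.24 and 11.28 in EGFR loss and at 12.50, 12.50 and 12.53 in BMP gain, a difference of -1.26 ± 0.06 (5.66e-08). Wild type A, at 11.87, lay between them, and Yp3 differed from it by -0.62 in EGFR loss (6.63e-05) and by 0.65 in BMP gain (3.21e-05). Yp1 stood at 12.23, 12.21 and 12.15 against 12.85, 12.82 and 12.88, at -0.65 ± 0.06 (3.07e-05). Yp2 stood at 12.35, 12.26 and 12.22 against 12.86, 12.84 and 12.90, at -0.59 ± 0.07 (0.000259). No arrays overlapped for these genes. For Yp1 and Yp2 the difference from wild type A was called in EGFR loss (-0.52, 0.000247, and -0.44, 0.00233) and not in BMP gain (0.13 and 0.15, both 0.394). Yp1 and Yp2 are adjacent on the X. yl, the germline receptor gene that takes up yolk, gave -0.01 ± 0.08 (0.972). The list of 4 thus held 3 lower and 1 not called, with a median of -0.62.

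Markers of other tissues were read beside the yolk and eggshell values. The 8 measured follicle cell markers summed on the linear scale to 20500, 19900 and 19300 in EGFR loss and to 28400, 27800 and 28600 in BMP gain. Their 3 lower members were the yolk protein genes. tj, a transcription factor gene of follicle cells, stood at 2.95, 4.35 and 2.18 against 5.53, 5.11 and 5.70. These arrays did not overlap, and the difference of -2.28 ± 0.58 was not called (0.0627) but passed without EGFR loss replicate 2, at -2.88 (0.0239). Germline markers summed to 3210, 2960 and 2630 against 3370, 3630 and 3510. Fat body also makes yolk proteins. Its 5 measured markers summed to 121, 147 and 219 in EGFR loss and to 128, 73.6 and 95.2 in BMP gain. In a longer fat body list none of 7 measured genes was called. Against wild type A 2 of them were called higher in EGFR loss and none in BMP gain. The fat body sums overlapped only through the first EGFR loss array, at 121, and the first BMP gain array, at 128. The 11 measured muscle markers summed to 975, 1380 and 967 against 1060, 928 and 878. In wild type A the sums were 25100 to 25800 for follicle cell and 3550 to 3990 for germline markers. They were 60.9 to 86.3 there for fat body and 986 to 1030 for muscle. In a longer list of 14 measured muscle genes Prm, the paramyosin gene, was higher in EGFR loss. It stood at 4.99, 3.99 and 4.82 against 2.88, 3.08 and 3.20, a difference of 1.54 ± 0.24 (0.00474). Prm differed from wild type A by 1.31 in EGFR loss (0.01) and by -0.23 in BMP gain (0.844). The muscle list had a median of 0.48 and the fat body list of 0.74, which was 0.33 without EGFR loss replicate 3. Hemocyte markers summed to 87.5 to 110 in EGFR loss and 78.9 to 85.1 in BMP gain, with Hml, NimC1 and eater under the 25th percentile in both groups. Neuron and glia markers summed to 50.1 to 54.7 and 42.6 to 56.3, with elav, brp and para that low, and gut markers to 38.7 to 75.9 and 54.1 to 61.6, with alphaTry that low. The hemocyte, neuron and glia, and gut sums cover 6, 6 and 5 measured genes, and the longer lists of these tissues hold 10, 8 and 10. None of those 3 lists had a called member, though the gut list had 1 higher without EGFR loss replicate 3. The part of other tissues in the differences was not tested.

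bam encodes a differentiation factor of early germline cysts, and in the germline stem cells of the ovary BMP signalling represses it. It stood at 5.80, 5.37 and 5.82 in EGFR loss and at 7.99, 8.00 and 7.90 in BMP gain, a difference of -2.31 ± 0.13 (5.21e-07). All BMP gain arrays lay more than a log2 unit above all EGFR loss arrays. bam differed from wild type A by 2.05 in BMP gain (1.7e-06) and by -0.25 in EGFR loss (0.37). Over all genes 0.998% were called lower in EGFR loss. Of 22 germline and oocyte RNA genes 3 were lower in EGFR loss, none was higher and 19 were not called, with a median of -0.06. Beside bam they were osk, whose product assembles the germ plasm, at 9.59, 9.29 and 9.14 against 9.85, 10.10 and 9.94, a difference of -0.62 ± 0.12 (0.014), and aub, a Piwi-family gene of the piRNA pathway, at -0.60 ± 0.12 (0.0189). Against wild type A osk differed by -0.55 in EGFR loss (0.0218) and by 0.07 in BMP gain (0.91), and aub by -0.43 (0.073) and 0.17 (0.707). The osk call ended without EGFR loss replicate 2 (0.0527) or BMP gain replicate 2 (0.0814). The aub call ended without EGFR loss replicate 2 (0.0629) or BMP gain replicates 1 (0.0743), 2 (0.0687) or 3 (0.0554). Other germline markers such as vas (-0.12, 0.573), bcd (-0.15, 0.433), orb (-0.12, 0.555) and otu (-0.11, 0.784) were not called.

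Further germline genes were singled out after their values were seen. armi, a helicase gene of the piRNA pathway, stood at 6.73, 6.92 and 6.83 against 7.44, 7.33 and 7.39, at -0.56 ± 0.10 (0.00877), with neither side called against wild type A (-0.29, 0.147, and 0.27, 0.236). tej, a Tudor domain gene of the same pathway, gave -0.50 ± 0.11 (0.0381) and tor, the terminal receptor tyrosine kinase gene, -0.43 ± 0.10 (0.038). gammaTub37C, the maternal gamma tubulin gene, gave -0.63 ± 0.12 (0.0177) by its brighter probe set and -0.83 ± 0.44 (0.406) by the dimmer. armi kept its call with any single array left out. Those of tej and tor ended when any array other than EGFR loss replicate 1 was left out (highest 0.136 and 0.139). The gammaTub37C call ended without EGFR loss replicate 3 (0.0549) or BMP gain replicates 1 (0.0648) or 2 (0.0933).

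DNA replication genes were read because follicle cells of these stages amplify their chorion genes. Of 15 measured, 3 were lower in EGFR loss, none was higher and 12 were not called. All 15 had a negative difference, from -0.55 to -0.02 with a median of -0.25, and for 12 the arrays did not overlap on the lower side, where 10.5% of all genes lie. dup, the Cdt1 licensing gene, stood at 7.78, 7.63 and 7.58 against 8.18, 8.26 and 8.11, at -0.53 ± 0.09 (0.00583). Orc1, a subunit gene of the origin recognition complex, gave -0.55 ± 0.10 (0.014). PCNA, the sliding clamp gene, stood at 9.25, 9.35 and 9.54 against 9.85, 9.81 and 9.76, at -0.43 ± 0.08 (0.019). Each of the 3 had groups that did not overlap. Against wild type A dup differed by -0.53 in EGFR loss (0.00396) and -0.01 in BMP gain (0.996), PCNA by 0.11 (0.556) and 0.54 (0.00304), and Orc1 by -0.37 (0.0815) and 0.19 (0.565). The list medians against wild type A were -0.05 in EGFR loss and 0.17 in BMP gain. The dup call held with any single array left out. That of PCNA ended when any array other than EGFR loss replicate 3 was left out (highest 0.0815), and that of Orc1 without EGFR loss replicate 2 (0.0527) or BMP gain replicates 2 (0.0532) or 3 (0.0607). Orc5 (-0.31, 0.0613), Mcm6 (-0.32, 0.135) and RnrL (-0.32, 0.0983), named after their values were seen, missed the threshold.

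**Figure D3:**
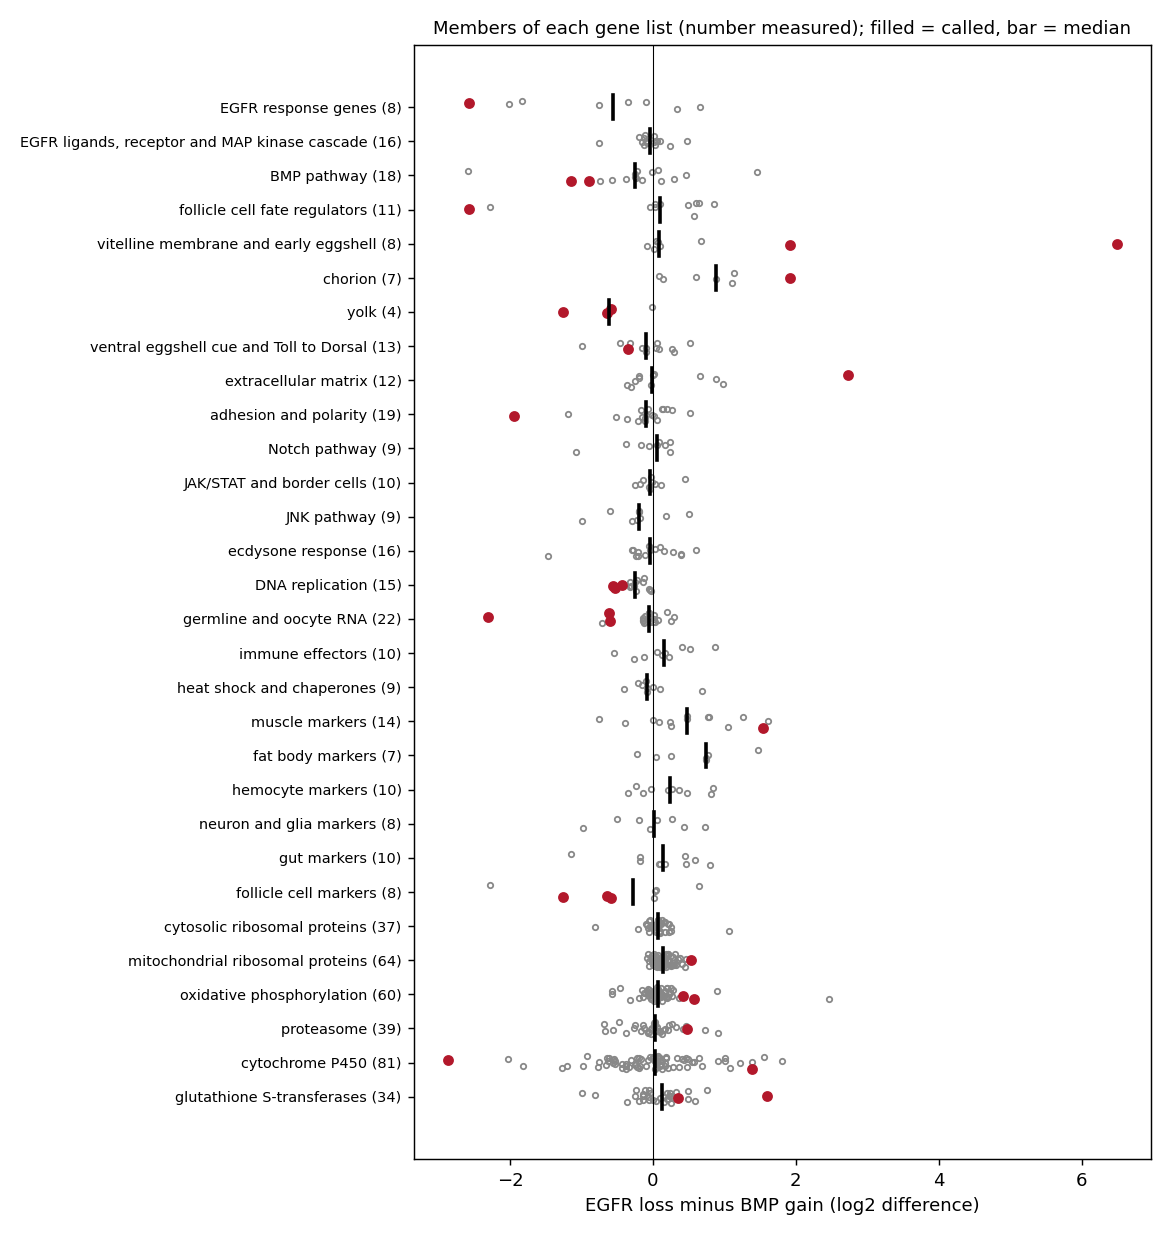
EGFR loss minus BMP gain (log2) of each measured gene in the lists, with called genes filled and a bar at each list's median. The DNA replication genes all lie below 0 and the chorion genes all above 0, while called members are 3 of 15 and 1 of 7.

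Among the other large differences, several genes of no assigned function were higher in EGFR loss. CG17270 stood at 6.70, 6.46 and 6.09 against 3.80, 3.71 and 4.10, at 2.55 ± 0.15 (5.21e-07). It was below wild type A in both groups, by -0.82 in EGFR loss (0.00874) and by -3.37 in BMP gain (3.56e-08). CG33099 stood at 7.14, 7.30 and 6.91 against 4.80, 4.33 and 4.46, at 2.59 ± 0.22 (2.58e-05). It differed from wild type A by -1.79 in BMP gain (0.000572) and by 0.80 in EGFR loss (0.0772). Its other, dimmer probe set gave 0.23 ± 0.48 (0.871). The esterase gene alpha-Est10 stood at 5.80, 6.07 and 6.47 against 4.10, 4.60 and 2.80, at 2.28 ± 0.33 (0.0025), with -2.94 against wild type A in BMP gain (0.000259). CG3520 gave 1.98 ± 0.31 (0.00481), with -1.60 against wild type A in BMP gain (0.0138). For these 4 the BMP gain side was below wild type A by the test. In EGFR gain, with the same driver, CG33099 stood at 4.74 ± 0.44, near BMP gain. CG3520, at 4.26 ± 0.74 there, lay between BMP gain and wild type A. CG17270, at 6.43, and alpha-Est10, at 6.6, lay nearer wild type A.

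Of the others among the 12 genes ranked highest by the same measure, GstD3, CRMP and CG11241 were above wild type A in EGFR loss. GstD3, a glutathione S-transferase gene, stood at 8.74, 8.82 and 8.78 in EGFR loss and at 7.29, 6.99 and 7.29 in BMP gain, a difference of 1.59 ± 0.13 (1.52e-05). It differed from wild type A by 1.96 in EGFR loss (2.83e-06) and by 0.37 in BMP gain (0.222). CRMP, which encodes a dihydropyrimidinase-family protein, gave 1.55 ± 0.23 (0.00311), and 1.35 against wild type A in EGFR loss (0.00631). CG11241 gave 1.56 ± 0.22 (0.00156), and 0.99 against wild type A in EGFR loss (0.026). The calls of CG7794, at 1.93 ± 0.42 (0.0309), and of the serine protease gene Jon65Ai, at 1.65 ± 0.37 (0.0355), were less steady. That of CG7794 ended without EGFR loss replicates 2 (0.0839) or 3 (0.1) or BMP gain replicates 1 (0.114) or 3 (0.114). That of Jon65Ai ended when any array other than BMP gain replicate 1 was left out (highest 0.149). Neither gene was called against wild type A. CG7794 differed from it by 0.85 in EGFR loss (0.325) and by -1.08 in BMP gain (0.296), and Jon65Ai by 0.41 (0.636) and -1.24 (0.121).

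On the lower side, among called genes whose higher group reached the median of all values, the widest difference was that of Cyp4p2, a cytochrome P450 gene. It stood at 1.91, 4.73 and 3.92 in EGFR loss and at 6.38, 6.56 and 6.23 in BMP gain, a difference of -2.87 ± 0.57 (0.0189), with 2.57 against wild type A in BMP gain (0.0284). The call ended without BMP gain replicates 1 (0.063), 2 (0.0868) or 3 (0.0554). org-1, a T-box transcription factor gene, stood at 2.58, 1.58 and 3.10 against 4.10, 4.60 and 4.91, at -2.12 ± 0.36 (0.00796). It differed from wild type A by -2.16 in EGFR loss (0.00536) and by -0.05 in BMP gain (0.992), and its call held with any single array left out. CG5245 gave -1.47 ± 0.20 (0.00108), and -1.80 against wild type A in EGFR loss (0.000209). Swim, which encodes a secreted Wingless-binding protein, stood at 5.42, 5.70 and 4.67 against 6.72, 6.71 and 6.82, at -1.48 ± 0.20 (0.00145), with neither side called against wild type A (-0.71, 0.0836, and 0.77, 0.0709). LeuRS, a leucyl-tRNA synthetase gene, gave -1.29 ± 0.14 (0.000171) on its brighter probe set and 0.42 ± 0.13 (0.115) on the other, so its probe sets disagree. CG15152 gave -2.13 ± 0.39 (0.0132), CG16868 -1.33 ± 0.27 (0.0216) and CG9008 -1.29 ± 0.25 (0.0168). Calls of these 3 ended for CG15152 without EGFR loss replicate 2 (0.0529) or BMP gain replicate 2 (0.054). For CG16868 they ended without EGFR loss replicates 2 (0.0819) or 3 (0.075) or BMP gain replicate 1 (0.0882), and for CG9008 without BMP gain replicate 3 (0.0739).

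**Figure D4:**
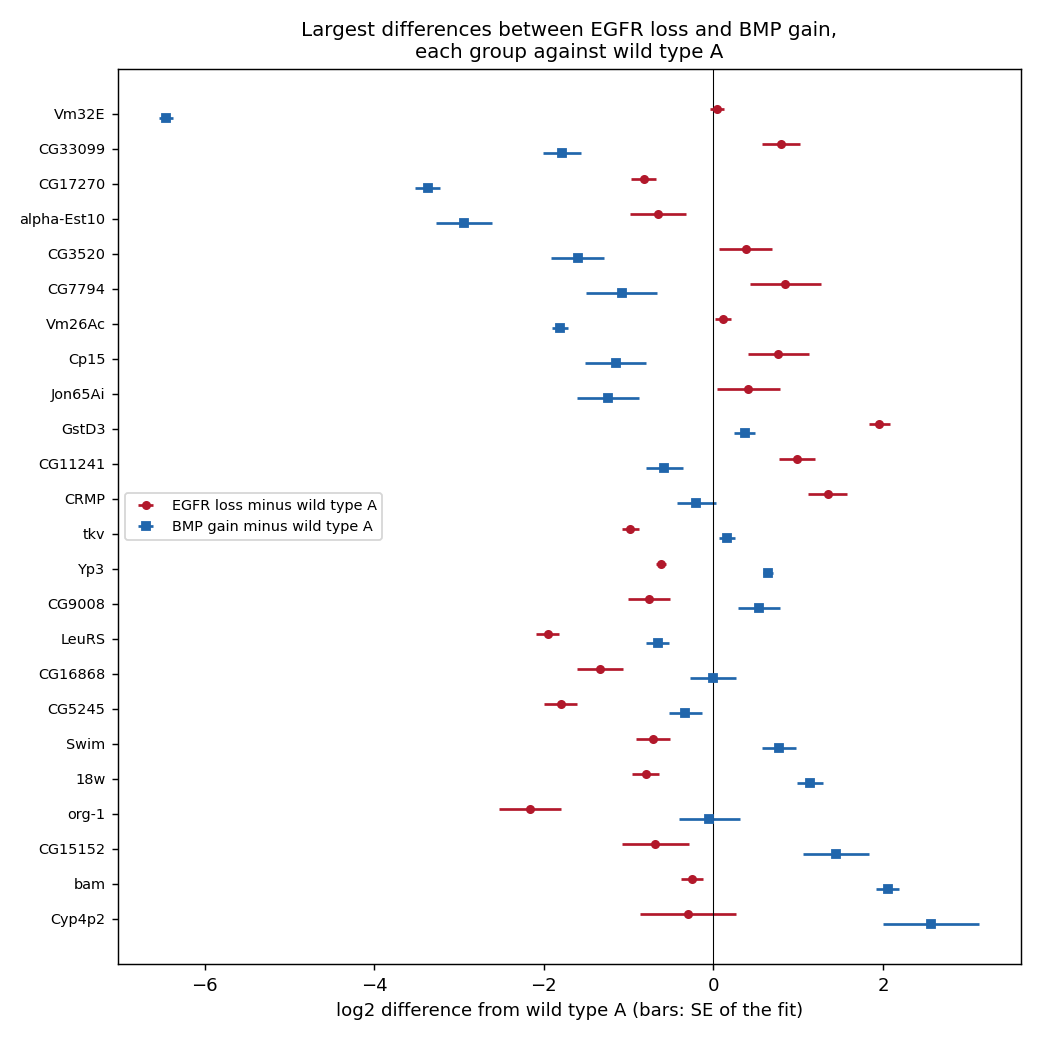
Difference from wild type A (log2, with SE) in EGFR loss and in BMP gain for the 12 most raised and 12 most lowered called genes of the direct comparison. Vm32E, Vm26Ac and bam lie near 0 in EGFR loss and far from 0 in BMP gain, while org-1, CG5245 and GstD3 lie farther from 0 in EGFR loss, and 18w and Yp3 depart from 0 to opposite sides.

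Some detoxification genes differed from wild type A in both groups. Cyp28d1, a cytochrome P450 gene, stood at 6.29 ± 0.39 in EGFR loss, 4.90 ± 0.33 in BMP gain, 5.96 in EGFR gain and 0.40 in wild type A. It differed from wild type A by 5.90 in EGFR loss (7.53e-07) and by 4.50 in BMP gain (4.44e-06). The wild type A values lie below the 25th percentiles of their arrays (1.94 to 2.00), which leaves both sizes uncertain. The direct difference was 1.39 ± 0.33 (0.0485). That call ended with any single array left out (adjusted p up to 0.155). Of 81 P450 genes 1 was higher and 1 lower in EGFR loss, against 1.20% and 0.998% of all genes, with a median of 0.03. Without EGFR loss replicate 3 none was higher and 2 were lower. Of 34 glutathione S-transferase genes GstD3 and GstE11 (0.35 ± 0.08, 0.0362) were higher and none was lower, with a median of 0.12. GstE11 was above wild type A in both groups, by 0.88 in EGFR loss (4.19e-05) and 0.53 in BMP gain (0.00176), and its direct call ended when any array other than EGFR loss replicate 1 was left out (highest 0.133).

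Genes of mitochondria and protein turnover were read beside the 2.20% of all genes called. Of 64 mitochondrial ribosomal protein genes 1, mRpL21, was higher in EGFR loss, at 0.53 ± 0.12 (0.0355), and none was lower. Of these, 57 had a positive difference, against 50.1% of all genes, and for 24 the arrays did not overlap on the higher side and for none on the lower, against 10.5% of all genes on each. The median was 0.14, and against wild type A it was 0.15 in EGFR loss and -0.01 in BMP gain. The call of mRpL21 ended when any array other than EGFR loss replicate 1 was left out (highest 0.131). Among 60 oxidative phosphorylation genes a pair of complex I subunit genes was higher, ND-B14.5B at 0.58 ± 0.09 (0.00535) and ND-B14.5A at 0.43 ± 0.10 (0.0447), with a list median of 0.06. The latter's call ended when any array other than EGFR loss replicate 1 was left out (highest 0.148). Of 39 proteasome genes Rpt5, an ATPase subunit gene of the cap, was higher, at 9.89, 9.86 and 10.01 against 9.48, 9.41 and 9.46 and a difference of 0.48 ± 0.07 (0.00341). It was below wild type A in BMP gain, by -0.46 (0.00303), and at 0.02 in EGFR loss (0.948). None of 37 cytosolic ribosomal protein genes was called, with a median of 0.06. In the extracellular matrix list of 12, Mur2B, a mucin-related gene, was higher in EGFR loss, at 3.14, 4.39 and 5.55 against 1.27, 1.89 and 1.72 and a difference of 2.73 ± 0.64 (0.0465). The BMP gain values are below those arrays' 25th percentiles, which leaves the size uncertain. Mur2B differed from wild type A by -1.63 in EGFR loss (0.215) and by -4.37 in BMP gain (0.00186). Its call ended when any array other than EGFR loss replicate 1 was left out, and was at 0.134 without EGFR loss replicate 3. The Notch, JAK/STAT, JNK, ecdysone, immune effector and heat shock lists had no called member, with medians from -0.20 to 0.15. Without EGFR loss replicate 3 the JNK list had 1 lower member.

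The number of calls depended on single arrays and on the samples fitted. It was 183 without EGFR loss replicate 2, 162, 120 and 156 without BMP gain replicates 1, 2 and 3, and 239 without EGFR loss replicate 3, of which 172 were among the 279. A fit to the 6 arrays alone, which has fewer residual degrees of freedom, called 17. Among them were Vm32E, Vm26Ac, Yp3, bam, GstD3, CG17270 and CG33099, while 18w stood at 0.0846, mirr at 0.153, both tkv probe sets at 0.0694, Yp1 at 0.131, Yp2 at 0.153 and Cp15 at 0.255. No difference called here and given by name reversed its sign under any alternative.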

How the data were processed

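Total RNA of egg chambers, 3 µg per sample, was hybridized to 1 Affymetrix Drosophila array each, per the labels' protocols. The authors deposited a table of log2 values, with 14010 probe sets and 1 column per array. The affy package is named in the submitters' processing notes. How background was corrected and probes summarised is not given in the sources used here. Base 2 was read from the values, since the highest, 13.3, is 9860 as a power of 2 and 578050 as a natural log. No detection calls were used, so folds between dim values depend on the authors' background handling.

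The 13966 probe sets without the 44 controls went into a limma fit (version 3.58.1, R 4.3.3) of 6 group means over 18 arrays, with 12 residual and 1.31 prior degrees of freedom. Calls needed an adjusted p (Benjamini-Hochberg) under 0.05. The number of arrays limits the precision. The fit was tested on simulated data.

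Gene names came from the platform annotation and were updated with a Release 6 plus ISO1 MT gene table used for names and gene order. Of them 12443 had 1 gene, 327 several and 1196 none. Of the 12443, 12394 matched by gene number, 4 by symbol and 38 by synonym, and 7 kept the file's name. The brightest probe set over 18 arrays stood for a gene. rho, pnt, vn and brk were not named on the array here.

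Named genes were the driven genes, a set of patterning genes, the 12 largest called differences in each direction whose higher group reached the median of 4.47, up to 5 called members of each of 30 lists, and all vitelline membrane, chorion and yolk genes. Other members of the BMP, EGFR and germline lists, and genes said to be singled out, were named after their values were seen. The members and lists were chosen with earlier results of these data known. No list was tested as a set. Alternatives were fits to 6 or 12 arrays, weights per array, an intensity trend, a dim probe set filter, other normalizations, each array left out, a replicate block and gene means. Same-numbered arrays of both groups had deviations correlated at 0.084, -0.0712 and 0.129, so the numbers were not taken as pairs.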

Additional observations from a re-analysis of the deposited data

How the results depend on the processing

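Against 279 calls (151 higher, 128 lower), the 6 arrays alone gave 17 (11 and 6), the 12 arrays of the round 134 (83 and 51), an intensity trend with robust moderation 507 (259 and 248) and a filter on dim probe sets 603 (315 and 288). The fit with a replicate block, for numbers that did not pair the samples, gave 147 (87 and 60). Leaving out 1 array gave 120 to 292 (71 to 161 higher, 49 to 131 lower). Array weights, quantile normalization, median centring and gene means kept the count within 1.5 times, and 62.3% of calls were higher under median centring against 54.1%. Of 57 called probe sets given by name 32 held with each single array left out, 39 under the block and 10 in every alternative that gave a value. The cause of lost calls was not tested.

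Signs turned only for differences that were not called. Over single arrays left out they ran from -0.12 to 0.42 for Cp36, -0.17 to 0.56 for Cp7Fc, -0.0776 to 0.34 for Egfr, -1.50 to 0.36 for aos, -0.10 to 1.08 for ara, -0.16 to 0.0658 for bun, -0.11 to 0.60 for dpp, -0.0664 to 0.0508 for grk, -0.0467 to 0.13 for psd, -0.21 to 0.48 for yellow-g2 and -0.0393 to 0.0227 for yl. Array weights gave -0.16 for Cp36, Cp7Fc and ara, -0.031 for Egfr and -0.14 for yellow-g2, and median centring 0.0125 for yl. Signal near background limits Dad, Dtg, mirr, kek1, caup and aos, whose EGFR loss values lie near or under the 25th percentile.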

Other observations

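Genes outside the lists were called too, and those that follow were singled out after their values were seen. Idgf2 and Idgf3, adjacent genes on arm 2L for chitinase-like growth factors, were both higher in EGFR loss than in BMP gain. Idgf2 stood at 7.75, 7.77 and 7.98 against 6.66, 6.46 and 6.19, a difference of 1.39 ± 0.15 (adjusted p = 0.000161, limma), and Idgf3 gave 0.72 ± 0.15 (0.0292). Both were above wild type A in EGFR loss, by 1.28 (0.000278) and 0.82 (0.0104), and at -0.12 (0.88) and 0.10 (0.906) in BMP gain. The metallothionein gene MtnA stood at 7.23, 7.30 and 7.72 against 6.20, 5.74 and 5.76, at 1.52 ± 0.18 (0.000552), with 1.18 against wild type A in EGFR loss (0.00322). Idgf2 and MtnA kept their calls with any single array left out. That of Idgf3 ended without EGFR loss replicates 1 (0.0651) or 3 (0.0927) or BMP gain replicates 2 (0.116) or 3 (0.105).

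A further set was low in BMP gain. The eye colour gene kar stood at 6.78, 6.83 and 6.78 in EGFR loss and at 5.29, 5.61 and 5.46 in BMP gain, a difference of 1.34 ± 0.16 (0.000485), with 6.87 in wild type A. Its other, dimmer probe set gave 0.60 ± 0.19 and was not called (0.138). veil stood at 8.19, 8.15 and 7.99 against 6.56, 6.83 and 6.74, at 1.40 ± 0.15 (0.000161), with 7.97 in wild type A. CG46491 stood at 4.31, 3.77 and 3.93 against 0.27, 0.15 and -0.83, at 4.14 ± 0.28 (2.93e-06), on 1 of its probe sets, the other giving -0.65 ± 0.67 (0.709). Its BMP gain values lie under the 25th percentile of those arrays, so the size is uncertain. emc, which encodes an inhibitor of helix-loop-helix factors, was lower in EGFR loss, at 8.07, 8.13 and 8.02 against 8.46, 8.57 and 8.74 and -0.52 ± 0.09 (0.0131), a call that ended without BMP gain replicate 3 (0.057) or 2 (0.05).

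The widest difference that was not called was that of the mucin gene Muc12Ea. It stood at 4.28, 7.40 and 6.66 in EGFR loss, at 0.44, 0.11 and 0.74 in BMP gain and at 2.54, 4.48 and 4.15 in wild type A, and gave 5.69 ± 1.55 (0.0836). EGFR gain held both levels, at 0.30, 0.58 and 7.06, which widened the pooled spread.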
